A study of Rattus norvegicus with 9 samples.

Results

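Fetal rat lungs exposed to oligohydramnios, a lack of amniotic fluid, were set against control lungs to find genes whose level differed whether or not the exposed lungs had been treated. The 6 libraries of oligohydramnios-exposed lungs were chosen by their labels out of 9 libraries in all, and the remaining 3 libraries were controls. Of the exposed lungs, 3 were hypoplastic lungs with no treatment and 3 were hypoplastic lungs given AFSC-EV, extracellular vesicles of amniotic fluid stem cells. All 9 came from the Sprague-Dawley strain, and the controls had no treatment. The labels call the exposed tissue hypoplastic lung, and the series title names oligohydramnios as the origin of the hypoplasia. How the fluid loss was produced, the fetal age, and the dose, route and time of the vesicles are not stated in the labels. No arm of control lungs given vesicles is among the samples, so the vesicles are present in 3 of the 6 exposed lungs only. Nothing in the labels says which lungs shared a litter, so p-values measure the spread between these libraries.

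Fetal lungs grow against the liquid that they secrete, and that liquid together with amniotic fluid keeps the airspaces distended. Loss of the fluid reduces this distension and the lung stays small, with fewer airway branches and less mature alveolar epithelium. Alveolar type II cells make surfactant, alveolar type I cells form the thin gas-exchange surface, and fibroblasts between them store lipid and lay down elastic fibres. Mechanical strain in many cell types acts on the co-activators YAP and TAZ, which raise genes such as Ccn1 and Ccn2.

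Library totals ran from 56922779 to 88243188 estimated counts, and 13836 to 14089 genes had a value above 0. Levels are given as CPM, counts scaled to the TMM-adjusted library total, which compares libraries but not genes of different length. Lung epithelium was present in every library, with Nkx2-1, the transcription factor that marks lung epithelium, at 264 CPM or more and Sftpc at 292 CPM or more. On the first principal component, which held 39.12% of the variance, control 2 lay at one end (-41.31) and hypoplastic 2 at the other (48.21). By Xist and Ddx3y the controls were 2 males and 1 female, and each exposed arm was 1 male and 2 females. Control 2, hypoplastic 1 and hypoplastic 2 stood apart in several gene groups, and values without them are given beside many of the results that they moved.

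No single gene passed the test of exposed against control lungs. Of 12966 genes tested, edgeR's quasi-likelihood test called 0 (0%) at a Benjamini-Hochberg adjusted p under 0.05, with 1 term for exposure so that differences between treated and untreated lungs counted as spread. The smallest adjusted p was 0.094, for Lepr, the leptin receptor. Without adjustment 1106 genes (8.53%) had a p under 0.05, 494 (3.81%) of them higher and 612 (4.72%) lower in the exposed lungs. Log2 differences were positive in 52.7% of all genes. In 511 genes (3.94%) all 6 exposed libraries lay on one side of all 3 controls, 220 of them higher (1.7%) and 291 lower (2.24%). DESeq2, run as an alternative, called 79 genes (0.609%), 47 higher (0.362%) and 32 lower (0.247%), and 66 of these had no overlap between exposed and control libraries. With limma voom the number was 0. When the hypoplastic and treated lungs each had a term of their own in edgeR and their mean was set against control, Lepr and Spp1 were called. All values below are therefore measured differences, and 12 higher and 12 lower genes without overlap and with the smallest p are named although edgeR did not call them.

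Lepr had the smallest p of all genes. This receptor of the fat hormone leptin is expressed in the lung by lipid-storing and other stromal fibroblasts, among other cells. Its level was 25.2, 37.9 and 27.3 CPM in the controls, 13.5, 9.85 and 13.7 CPM in the untreated hypoplastic lungs and 8.72, 9.47 and 11.3 CPM in the treated lungs. Every exposed lung lay below every control, and control 2 was the highest library. The log2 difference of exposed minus control was -1.44 (SE 0.18), lower in 6 of 6 exposed lungs, with an edgeR adjusted p of 0.094. Leaving out any 1 library gave differences of -1.54 to -1.24. Over all alternatives its adjusted p ran from 1.3e-09 to 0.46, the lowest by DESeq2, and was 0.0411 by edgeR with a term per group. Set side by side, the untreated lungs differed from control by -1.28 and the treated lungs by -1.61, values that share the same controls. In bulk tissue, fewer cells that express a gene and less RNA of it per cell cannot be told apart.

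Most other genes of lipid-storing fibroblasts did not pass the unadjusted threshold. Of 11 tested members of that list, 2 were higher (Fabp4 and Pthlh) and 1 lower (Lepr) at an unadjusted p under 0.05. Of all genes 3.81% were higher and 4.72% lower at that threshold. The median log2 difference of the list was 0.07, against 0.01 over all genes tested. Plin2, which coats lipid droplets, differed by 0.48 (SE 0.24), and Pparg, the transcription factor of fat storage, by 0.02 (SE 0.22). Fabp4, a fatty acid carrier, was at 0.735, 0.785 and 1.18 CPM in the controls and at 1.04, 2.77 and 10.2 CPM (lowest, median and highest) in the exposed lungs. The highest Fabp4 value was that of hypoplastic 2, without which the log2 difference went from 1.92 to 1.22, and the groups overlapped.

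**Figure D1:**
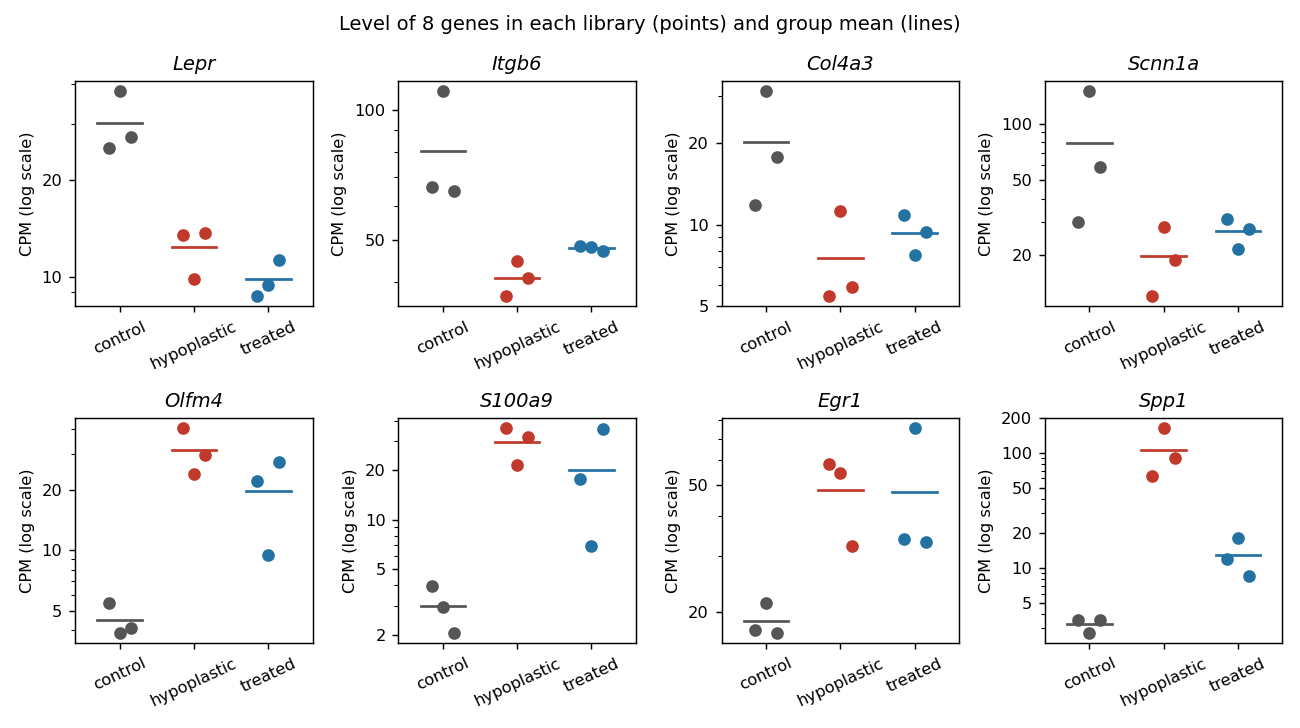
Level of 8 genes in CPM (log axis) in each of the 9 libraries, by group; points are libraries and lines are group means. Lepr, Itgb6 and Col4a3 lay below every control in all exposed lungs, Olfm4, S100a9, Egr1 and Spp1 lay above, and Scnn1a overlapped because treated 1 (31.2 CPM) exceeded control 1 (30.2 CPM).

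Several of the 12 lower genes are expressed by epithelium. Itgb6 encodes the epithelial integrin subunit that, paired with the alpha v subunit, frees TGF-beta from its latent form. It was at 66.4, 110.5 and 64.8 CPM in the controls, 37.1, 44.7 and 40.9 CPM in the untreated and 48.5, 48.2 and 47.3 CPM in the treated exposed lungs. The exposed values were tightly grouped below the lowest control, and control 2 was the highest library. This gave a log2 difference of -0.86 (SE 0.16), with an edgeR adjusted p of 0.422 and a DESeq2 adjusted p of 0.00225. Without control 2 the difference was -0.56.

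Tspan8, an epithelial tetraspanin of the cell surface, was at 92.3, 164 and 108 CPM in the controls against 70.04, 74.9 and 80.3 CPM (lowest, median and highest) in the exposed lungs, a log2 difference of -0.70 (SE 0.15). Kcne2, an accessory subunit of potassium channels, was at 9.65, 18.0 and 11.3 CPM in the controls against 2.01, 5.47 and 6.62 CPM in the exposed lungs, a log2 difference of -1.39 (SE 0.30). In both genes control 2 was again the highest and the groups did not overlap. Gja1, which encodes a connexin of gap junctions, was at 927, 1051 and 1181 CPM in the controls and 689, 758 and 849.7 CPM in the exposed lungs. Its log2 difference was -0.46 (SE 0.10), and control 3 was its highest library.

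Metabolic enzymes and carriers made up much of the rest. Bcat2, the mitochondrial aminotransferase of branched-chain amino acids, differed by -0.77 (SE 0.16). Gnmt, a methyltransferase that uses up S-adenosylmethionine, differed by -1.15 (SE 0.25), and Gstm2, a glutathione transferase, by -0.60 (SE 0.14). Slc22a5, the carnitine transporter, was at 27.7, 36.2 and 26.0 CPM in the controls and 16.9, 18.6 and 24.3 CPM in the exposed lungs (log2 difference -0.64, SE 0.14). Slc2a12, a glucose transporter, differed by -0.77 (SE 0.17). The remaining pair were Veph1, with a difference of -1.17 (SE 0.23), and Paqr6, a membrane receptor of the progestin and adipoQ receptor family, with -0.57 (SE 0.13). Without control 2 the differences were -0.42 for Tspan8, -0.76 for Veph1, -0.47 for Bcat2, -0.75 for Gnmt and -1.08 for Kcne2. DESeq2 called all 12 lower genes, which were chosen for a small p, against 0.247% of all genes called lower. The edgeR adjusted p was 0.422 for each except Lepr.

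Type IV collagen chains of the mature alveolar basement membrane were also lower without overlap. Col4a3 and Col4a4, which assemble into one network, were singled out after their values were seen. Col4a3 was at 11.8, 31.2 and 17.8 CPM in the controls, 5.44, 11.3 and 5.86 CPM in the untreated and 10.8, 7.74 and 9.40 CPM in the treated lungs. Control 2 was far above the rest, and the highest exposed lung (11.3 CPM) lay just under control 1 (11.8 CPM). Its log2 difference was -1.26 (SE 0.30), and -0.81 without control 2. Col4a4 differed by -0.98 (SE 0.25), with exposed lungs at 5.39, 8.10 and 10.2 CPM against 10.2, 22.6 and 13.5 CPM in the controls, and by -0.61 without control 2. DESeq2 called both and edgeR neither (adjusted p 0.422 and 0.451). Col4a1, of the network found in most basement membranes, differed by 0.14 (SE 0.18).

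Genes of alveolar type II cells, the surfactant makers, were on the whole lower. Of 11 tested members of the list 5 were lower and 0 higher at an unadjusted p under 0.05 (4.72% of all genes were lower), all 11 log2 differences were negative (47.3% over all genes), and the median was -0.48 (0.01 over all genes). The 5 were Sftpb, Sftpc, Sftpd, Lamp3 and Slc34a2, and no member was without overlap. Sftpb, a surfactant protein needed for the surface film, was at 908, 2007 and 1362 CPM in the controls, 817, 763 and 816 CPM in the untreated and 923, 958 and 765 CPM in the treated lungs. Treated 1 and treated 2 lay above control 1, and control 2 was the highest. Its log2 difference was -0.76 (SE 0.20, adjusted p 0.462 by edgeR and 0.0334 by DESeq2), and -0.43 without control 2. Sftpc, a surfactant protein of type II cells, differed by -0.65 (SE 0.24), Sftpd, a collectin of lung defence, by -0.75 (SE 0.33) and Sftpa1, another collectin, by -0.33 (SE 0.29). Without control 2 the differences were -0.22 for Sftpd, 0.08 for Sftpa1, -0.25 for Lamp3 and -0.26 for Slc34a2, of which Lamp3 had been -0.54 and Slc34a2 -0.56.

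The summed level of the alveolar type II list was 3565 CPM in control 1, 6502 CPM in control 2 and 4544 CPM in control 3. In the exposed lungs it was 2650 to 3054 CPM without treatment and 3198 to 4459 CPM with treatment. The untreated lungs lay below all controls, whereas treated 1 and treated 2 lay above control 1. Set side by side, the median of the list was -0.62 for the untreated lungs and -0.31 for the treated lungs, each against the same controls. Leaving out control 2 brought the median of the alveolar type II list to -0.22.

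Alveolar type I genes were lower in 5 of 12 tested members (Hopx, Emp2, Cav1, Pdpn and Cldn18) and higher in 0 at the same unadjusted threshold, which 4.72% of all genes passed as lower. The median was -0.32, and -0.17 without control 2. Hopx, a transcription cofactor of type I cells, was at 64.7, 164 and 100.2 CPM in the controls and 37.2, 57.6 and 87.4 CPM (lowest, median and highest) in the exposed lungs, so the groups overlapped. Its log2 difference was -0.83 (SE 0.30). Emp2, a membrane protein of type I cells, differed by -0.76 (SE 0.26), and Ager, their classical surface marker, by -0.72 (SE 0.34). The 3 members with a positive difference, none past the threshold, were Aqp5, a water channel, at 0.35 (SE 0.73), Vegfa, an endothelial growth factor, at 0.08 (SE 0.12) and Rtkn2 at 0.01 (SE 0.17). Without control 2 Hopx differed by -0.42, Emp2 by -0.35, Ager by -0.31 and Cav1, which had been -0.48, by -0.19.

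Ion transport genes that govern secretion and absorption of lung liquid were lower in 4 of 13 tested members and higher in 0, against 4.72% of all genes lower. The median of the lung fluid ion transport list was -0.26, and -0.13 without control 2. Scnn1a, the alpha subunit of the epithelial sodium channel that drives liquid absorption, was at 30.2, 148 and 58.5 CPM in the controls, 12.2, 28.3 and 18.9 CPM in the untreated and 31.2, 21.8 and 27.7 CPM in the treated lungs. Control 2 was far above every other library, and treated 1 lay above control 1. On the log2 scale the difference was -1.76 (SE 0.41, adjusted p 0.422 by edgeR), and -0.93 without control 2. Of its partner subunits, Scnn1b differed by 0.19 (SE 0.17) and Scnn1g by -0.26 (SE 0.23). The others of the 4 were Ano1, a chloride channel (-0.67, SE 0.20), Atp1b1, a subunit of the sodium pump (-0.37, SE 0.13), and Slc26a9, an anion transporter (-0.50, SE 0.20). Without control 2 they were at -0.37, -0.19 and -0.27 in the same order. Cftr, the main chloride channel of airway secretion, differed by -0.33 (SE 0.15).

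Lipid synthesis supplies the phospholipid of surfactant, and 3 of 16 tested genes of cholesterol and fatty acid synthesis were lower (4.72% of all genes), with 0 higher. These were Fasn, the fatty acid synthase (-0.59, SE 0.20), Acaca, the carboxylase before it (-0.24, SE 0.09), and Srebf1, the transcription factor of both (-0.27, SE 0.09). Srebf1 was at 67.3, 72.9 and 65.2 CPM in the controls and 51.7, 55.7 and 62.2 CPM in the exposed lungs, without overlap. The list's median was -0.04 against 0.01 over all genes tested, with 7 differences positive and 9 negative. Side by side, the median was 0.12 for the untreated and -0.16 for the treated lungs. Among 16 tested genes of the elastic fibre 10 differences were positive and 6 negative. Their median was 0.12, and -0.12 without control 2. At the unadjusted threshold 3 members were lower, against 4.72% of all genes, and 0 higher. These were Fbln5, a fibulin that organises elastin (-0.53, SE 0.16), Efemp1, another fibulin and the only member without overlap (-0.49, SE 0.17), and Fbn2, a fibrillin of fetal microfibrils (-0.45, SE 0.18). Of all genes 2.24% were lower without overlap. Without control 2 the differences were -0.24 for Fasn, -0.34 for Fbln5, -0.32 for Efemp1 and -0.21 for Fbn2. Eln itself, the elastin gene, differed by 0.40 (SE 0.43).

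Of all lists, the one for neutrophil granule and surface genes had the most members past the unadjusted threshold. Of 11 tested members 9 were higher and 0 lower at an unadjusted p under 0.05, against 3.81% of all genes higher, and 5 (S100a8, S100a9, Mpo, Lcn2 and Camp) were higher without overlap, against 1.7% of all genes. DESeq2 called 5 of the 11, all higher, against 0.362% of all genes called higher. S100a9, which with S100a8 forms calprotectin, was at 3.95, 2.96 and 2.06 CPM in the controls, 36.1, 21.6 and 31.9 CPM in the untreated and 17.8, 6.93 and 35.8 CPM in the treated lungs. All exposed lungs were higher than all controls, with treated 2 the lowest of the 6. The log2 difference was 3.06 (SE 0.52), and that of S100a8 was 2.66 (SE 0.46). Without treated 2, edgeR called both, with an adjusted p of 0.0124 for S100a9 within a range over all alternatives of 4.6e-06 to 0.999.

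Olfm4, a secreted glycoprotein of neutrophil granules and of some epithelia, had the second smallest p of all genes. It was at 5.49, 3.89 and 4.11 CPM in the controls, 40.5, 23.9 and 29.9 CPM in the untreated and 22.1, 9.42 and 27.4 CPM in the treated lungs. The lowest exposed lung, treated 2, was still above the highest control. The log2 difference was 2.50 (SE 0.39) and its edgeR adjusted p 0.422, which was 0.00843 without treated 2 and ran from 4.3e-10 to 0.999 over all alternatives. Camp, an antimicrobial cathelicidin, was at 1.41, 1.60 and 0.719 CPM in the controls and 1.85, 5.42 and 11.5 CPM in the exposed lungs, a log2 difference of 2.35 (SE 0.59). Mpo, the myeloperoxidase of primary granules, was at 0.322, 0.143 and 0.122 CPM in the controls and 0.606, 0.903 and 5.21 CPM in the exposed lungs (log2 difference 3.23, SE 1.01). Mpo was near the floor in the controls and could not have passed the expression filter on them alone.

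Summed over the list, neutrophil genes were at 31.6, 26.3 and 24.8 CPM in the controls. The untreated exposed lungs were at 138.6, 211.6 and 117.1 CPM and the treated lungs at 77.6, 49.0 and 116.8 CPM. In this sum every exposed lung exceeded every control, and hypoplastic 2 was the highest. Single members did not all follow the sum. Mpo was highest in hypoplastic 2, but S100a8, S100a9, Camp and Mmp8 were lower there than in the other untreated lungs. For S100a8 these values were 19.8 CPM in hypoplastic 2 against 39.0 CPM in hypoplastic 1 and 31.1 CPM in hypoplastic 3. The list's median log2 difference was 2.35, and 2.77 for the untreated and 1.64 for the treated lungs side by side. Leaving out any 1 library gave medians of the neutrophil list between 1.82 (without hypoplastic 2) and 2.55 (without treated 2). The list was chosen with high granule genes in these data already known, so its count is a description.

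Macrophage genes had positive differences in all 12 tested members (52.7% over all genes). Only Adgre1, a macrophage surface receptor, passed an unadjusted p of 0.05 and was without overlap. Of all genes 3.81% were higher at that threshold, and 1.7% were higher without overlap. Adgre1 was at 5.76, 1.18 and 5.91 CPM in the controls and 7.08, 14.3 and 23.9 CPM in the exposed lungs, a log2 difference of 1.71 (SE 0.51). The list's median was 0.80, 0.38 without control 2 and 0.06 without control 2 and hypoplastic 2 together. Il1rl1, the receptor of the alarmin IL33 on mast cells and innate lymphoid cells, was at 1.20, 0.41 and 1.18 CPM in the controls, 5.38, 15.1 and 6.39 CPM in the untreated and 6.77, 2.83 and 5.01 CPM in the treated lungs. Hypoplastic 2 was far above the other exposed lungs, all of which exceeded the controls, and the log2 difference was 2.86 (SE 0.56). Mcemp1, a membrane protein of mast cells and other myeloid cells, differed by 1.45 (SE 0.29).

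**Figure D2:**
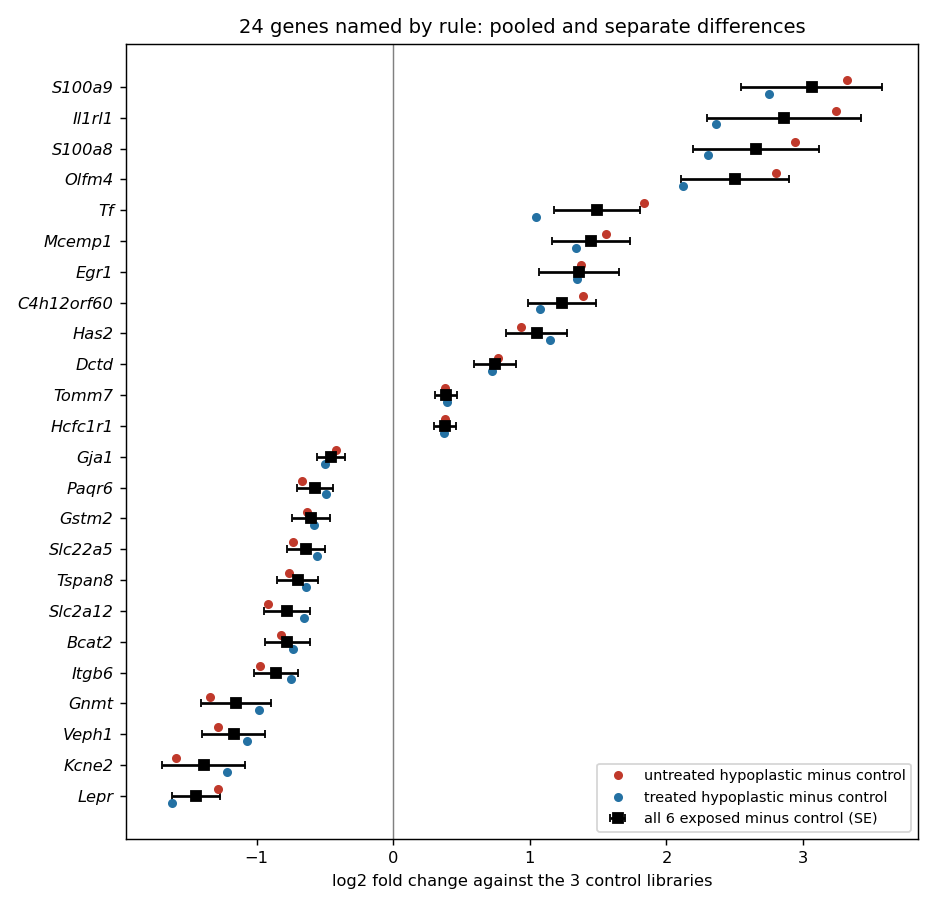
Log2 difference from control of the 12 higher and 12 lower genes named by the rule; squares are the 6 exposed lungs together with bars of 1 SE, and red and blue points are the untreated and the treated lungs alone. Values ran from -1.44 for Lepr to 3.06 for S100a9, and the points of both arms lay on the same side of 0 in all 24 genes, which the choice of genes without overlap fixes.

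The other higher genes had varied roles. Tf, the iron carrier transferrin, was at 26.9, 20.6 and 23.7 CPM in the controls, 99.5, 72.4 and 82.6 CPM in the untreated and 60.4, 29.5 and 57.2 CPM in the treated lungs. No exposed lung lay within the control range, and the treated lungs lay between the controls and the untreated lungs. Its log2 difference was 1.49 (SE 0.31). The treated lungs differed from the untreated ones by -0.79, with an edgeR adjusted p of 0.859 over all genes. Has2, the synthase of hyaluronan, was at 3.06, 1.89 and 2.59 CPM in the controls and 3.96, 4.98 and 7.04 CPM in the exposed lungs (log2 difference 1.05, SE 0.23). Tacr1, the receptor of substance P, was at 1.36, 1.16 and 2.47 CPM in the controls and 2.84, 4.58 and 6.87 CPM in the exposed lungs, a log2 difference of 1.46 (SE 0.33).

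The remaining 4 higher genes included a pair with small and even differences. Tomm7, a subunit of the mitochondrial import pore, was at 28.4, 29.0 and 29.5 CPM in the controls and 34.6, 38.1 and 41.2 CPM in the exposed lungs. The spread within each group was small against the gap, and the log2 difference was 0.39 (SE 0.08). Hcfc1r1 was at 58.8, 51.1 and 53.1 CPM in the controls and 64.3, 71.8 and 73.9 CPM in the exposed lungs (0.38, SE 0.08). Dctd, the deaminase that makes deoxyuridylate for thymidylate synthesis, differed by 0.74 (SE 0.15). C4h12orf60, an open reading frame without a named function, differed by 1.24 (SE 0.25). DESeq2 called all 12 higher genes, which were chosen for a small p, against 0.362% of all genes called higher. The edgeR adjusted p of each was 0.422.

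Some genes known to respond to strain and growth signals were higher. Egr1, an immediate-early transcription factor, was at 17.6, 21.3 and 17.2 CPM in the controls, 58.4, 54.6 and 32.1 CPM in the untreated and 33.8, 75.6 and 33.1 CPM in the treated lungs. The lowest exposed lung was well above the highest control, and the arms did not separate from each other. Egr1 thus differed by 1.36 (SE 0.29), and side by side 1.37 without and 1.34 with treatment. Ccn1, a matrix-bound signalling protein and YAP target, was at 149, 112 and 215 CPM in the controls, 318, 319.8 and 385 CPM in the untreated and 329, 344 and 199 CPM in the treated lungs. Only treated 3 lay inside the control range. Its log2 difference was 0.995 (SE 0.23, adjusted p 0.422 by edgeR and 0.00393 by DESeq2). Ccn2, the connective tissue growth factor and another YAP target, was at 43.1, 23.4 and 50.04 CPM in the controls, 64.5, 108 and 61.8 CPM in the untreated and 111, 166 and 60.0 CPM in the treated lungs. Its groups did not overlap, treated 2 was the highest library, and the log2 difference was 1.29 (SE 0.37).

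The promoters of this pair are shown because both genes were higher in most exposed lungs and both are known YAP targets, which act through TEAD factors. The sequences are from RefSeq (assembly GRCr8, matched by gene, not the build of the counts), from 250 bases before to 50 bases after the gene's start, 5′ to 3′ on the strand of the gene. Capitals mark the letters GGAATG, a core that TEAD factors bind, or CATTCC on the other strand.
Ccn1, chr2:237225640-237225939, minus strand: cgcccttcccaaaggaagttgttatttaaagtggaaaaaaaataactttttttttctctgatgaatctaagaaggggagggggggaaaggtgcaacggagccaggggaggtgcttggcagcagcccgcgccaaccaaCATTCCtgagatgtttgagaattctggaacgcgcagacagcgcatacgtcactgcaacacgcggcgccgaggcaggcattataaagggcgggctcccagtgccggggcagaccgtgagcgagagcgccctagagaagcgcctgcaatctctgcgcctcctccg
Ccn2, chr1:22624565-22624864, minus strand: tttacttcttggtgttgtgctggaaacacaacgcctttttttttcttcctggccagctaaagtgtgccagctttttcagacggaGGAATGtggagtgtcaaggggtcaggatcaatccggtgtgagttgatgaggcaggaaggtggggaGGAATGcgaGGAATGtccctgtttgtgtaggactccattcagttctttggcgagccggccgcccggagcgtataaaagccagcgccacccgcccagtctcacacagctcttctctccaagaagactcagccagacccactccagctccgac
Ccn1 held 1 match, 113 bases before the start, and Ccn2 held 3, at 166, 101 and 92 bases before it. Among all 33469 promoters of that length in the table, 4749 (14.2%) held GGAATG on either strand. Of the 24 genes named by the rule, 21 had a promoter in the table and 4 of these held a match. Of the 14 strain and YAP genes 9 had a promoter there, and 5 held a match. A match describes letters only and is no measured binding site.

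Most of the strain and YAP list did not pass the unadjusted threshold. Of 14 tested members 3 were higher (Ccn1, Ccn2 and Pthlh) and 0 lower at an unadjusted p under 0.05. Of all genes 3.81% were higher at that threshold. The list's median was 0.12, against 0.01 over all genes tested. Pthlh, a peptide that epithelium sends to lipid-storing fibroblasts in response to stretch, was at 0.521, 0.143 and 0.271 CPM in the controls and 0.308, 0.982 and 2.27 CPM in the exposed lungs, with overlap, a log2 difference of 1.79 (SE 0.62). Ankrd1, another target, differed by 0.42 (SE 0.49), as did Yap1 by -0.12 (SE 0.07), Wwtr1, which encodes TAZ, by 0.12 (SE 0.21) and Piezo1, a stretch-gated channel, by -0.03 (SE 0.21).

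Spp1 was far higher in the exposed lungs, and the untreated arm was the higher of the 2 arms. Osteopontin, its product, is a secreted matrix protein made by macrophages and other cells under injury. It was at 3.57, 2.75 and 3.54 CPM in the controls, 63.5, 164 and 89.8 CPM in the untreated and 11.9, 18.3 and 8.53 CPM in the treated lungs. The 3 groups did not overlap, with the treated lungs in between. The pooled log2 difference was 4.17 (SE 1.03) with an edgeR adjusted p of 0.434, against 0.0411 with a term per group, and the adjusted p ran from 0.00225 to 0.999 over all alternatives. Treated lungs differed from untreated ones by -3.03 on the log2 scale, with an edgeR adjusted p of 0.186. Of 8 tested genes for osteopontin and its receptors Spp1 was the only member past the unadjusted threshold, which 8.53% of all genes passed. Cd44, a receptor, differed by -0.03 (SE 0.10). Over all 511 genes without overlap, 20 (3.91%) differed between treated and untreated lungs at an unadjusted p under 0.05, against 5.56% of all genes. Choosing genes without overlap favours those whose 2 arms agree, so the lower share is a description only.

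Interferon-response genes had positive differences in all 16 tested members (52.7% over all genes), with a median log2 difference of 2.17 (0.01 over all genes). However, 1 library stood far above the rest. At an unadjusted p under 0.05 4 members were higher, against 3.81% of all genes. Their summed level was 891.7 CPM in hypoplastic 2, 211 to 383 CPM in the other exposed lungs and 188 to 252 CPM in the controls. Without hypoplastic 2 the median of the interferon response list was 1.05. Oasl, an antiviral sensor of the synthetase family, was at 0.506, 0.731 and 0.692 CPM in the controls and 0.729, 1.68 and 49.6 CPM (lowest, median and highest) in the exposed lungs, with overlap (log2 difference 3.995, SE 1.66), and its difference was 1.93 without hypoplastic 2.

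Ifit1, an interferon-induced protein that binds viral RNA, followed another pattern. It was the only member of the list without overlap, where 1.7% of all genes were higher without overlap. It was at 0.567, 24.4 and 0.0542 CPM in the controls, 25.3, 44.0 and 32.6 CPM in the untreated and 30.0, 30.9 and 26.9 CPM in the treated lungs. All exposed lungs were at similar levels, and control 2 was close below them while the other controls were near 0. The log2 difference was 1.94 (SE 1.05) with an edgeR adjusted p of 0.646. Without control 2 it was 6.72 with an edgeR adjusted p of 0.00298, and over all alternatives the adjusted p ran from 0.00187 to 0.889. Outside the list, Oas2 (log2 difference 3.94, SE 1.38) and Oas1k (2.49, SE 0.90), of the synthetase family, were also higher without overlap. Both were singled out after their values were seen, and edgeR called neither.

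Among 17 tested chemokine, cytokine and NF-kB genes 2 were higher (Il6 and Cxcl2) and 1 lower (Cxcl3) at an unadjusted p under 0.05. Of all genes 3.81% were higher and 4.72% lower at that threshold. The list's median was 1.54, against 0.01 over all genes tested. Il6, an inflammatory cytokine, was at 0.0613, 0.0713 and 0.0814 CPM in the controls and 0.109, 0.406 and 7.05 CPM in the exposed lungs, without overlap. With controls near the floor, Il6 could not have passed the expression filter on the controls alone. Its place among the higher members is thus partly set by the filter. Hypoplastic 2 again held the highest value of Il6, Cxcl2 and Cxcl10, and its sum over the list was 988.9 CPM against 280 to 356 CPM in the other exposed lungs and 246 to 320 CPM in the controls. Without it Il6, at 4.28 with it, differed by 2.30 and Cxcl2, at 2.25 with it, by 0.997. Cxcl3 went from -0.57 to -0.17 without control 2. Without hypoplastic 2 the median of the chemokines, cytokines and NF-kB targets was 0.73.

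**Figure D3:**
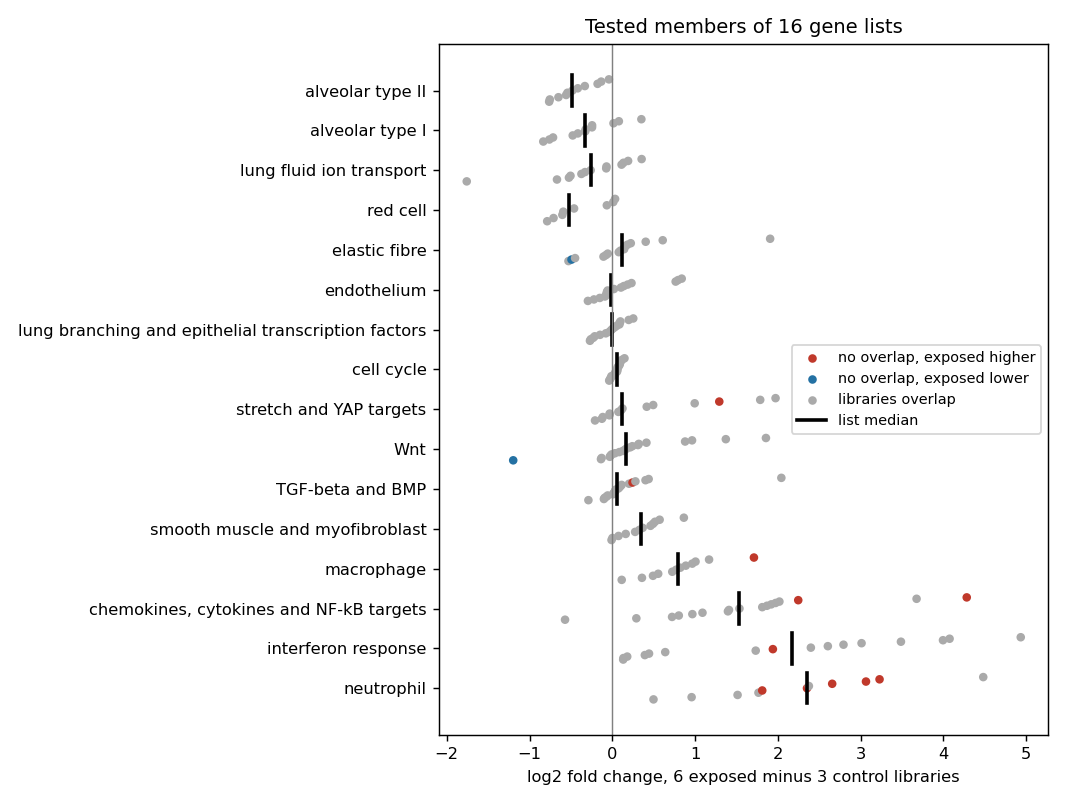
Log2 difference, exposed minus control, of every tested member of 16 gene lists (points), with the list median as a black mark; red and blue points are members without overlap, higher and lower. Medians were 2.35 for neutrophil and 2.17 for interferon genes and -0.48 for alveolar type II genes, while those of cell cycle (0.06) and branching genes (-0.01) lay near the median of all genes (0.01).

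Genes that pattern the branching airways showed little difference. None of 16 tested branching and epithelial transcription and growth factor genes passed an unadjusted p of 0.05 in either direction, where 8.53% of all genes did, and their median was -0.01. Nkx2-1 differed by -0.15 (SE 0.15). Sox9, which marks the growing bud tips, differed by -0.08 (SE 0.19) and Fgf10, the mesenchymal growth factor that draws buds out, by 0.03 (SE 0.14). Sox9 and Fgf10 changed sign when single libraries were left out (-0.27 to 0.12 and -0.04 to 0.08). Shh, the epithelial signal that restrains Fgf10, differed by -0.21 (SE 0.19). None of 11 hedgehog genes and none of 16 cell cycle genes passed, and Mki67, a marker of dividing cells, differed by 0.10 (SE 0.18).

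In the TGF-beta and BMP list the median of 20 tested genes was 0.06. Bmp5, a ligand, differed by 0.24 (SE 0.09) without overlap, and Tgfbr2, the ligand-binding receptor, by -0.29 (SE 0.11). Tgfb1, the ligand, differed by 0.44 (SE 0.27), and by 0.14 without control 2, and Smad3, its signal carrier, by 0.03 (SE 0.14), which changed sign without control 2 (-0.11). In the Wnt list 2 of 20 were higher at an unadjusted p under 0.05, against 3.81% of all genes. These were the secreted modulators Dkk2 (1.86, SE 0.69) and Sfrp1 (1.37, SE 0.59). Both overlapped the controls. Set side by side against those controls, Dkk2 was at 2.47 in the untreated and 0.82 in the treated lungs, and Sfrp1 at 1.92 and 0.51. Dkk2 was at 1.20 without hypoplastic 2, and Sfrp1 at 0.55 without hypoplastic 1 and hypoplastic 2. Dkk1, a related inhibitor, was at 0.26, 0.178 and 0.203 CPM in the controls and 0, 0.108 and 0.145 CPM in the exposed lungs, lower without overlap but past no threshold (log2 difference -1.20, SE 0.56).

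At the unadjusted threshold 3.81% of all genes were higher and 4.72% lower. Counts of 1 in lists of 13 to 16 genes lay near these shares. For retinoic acid genes 1 of 15 was higher (Stra6, the retinol uptake receptor, 0.96, SE 0.42). For hypoxia and glycolysis 1 of 14 was higher (Pgk1, a glycolytic kinase, 0.46, SE 0.16). For glucocorticoid response 1 of 13 was lower (Per1, a clock gene, -0.27, SE 0.12). Of 16 endothelial genes 1 was lower (Emcn, a surface sialomucin, -0.29, SE 0.12), and Pecam1 differed by 0.02 (SE 0.17). In 12 smooth muscle and myofibroblast genes none passed, though 11 were positive, with a median of 0.35 that was 0.13 without control 2 for the smooth muscle and myofibroblast list. In 8 fibrillar and other collagens none passed, and the median of the collagens, 0.27, was -0.0034 without control 2. Col1a1 was at 5816 CPM in hypoplastic 2 against 954 to 1616 CPM in the other exposed lungs, and its difference of 0.79 became 0.15 without hypoplastic 2 and -0.18 without control 2 and hypoplastic 2 together. None of 8 club and secretory and none of 8 multiciliated genes passed, and the negative median of the multiciliated airway list (-0.37) was 0.15 without control 2. None of 6 neuroendocrine genes passed, and of 5 basal epithelial genes 1 was higher (Krt14, 5.34 (SE 2.24), and 2.44 without hypoplastic 1). Krt14 was near the floor in the controls and could not have passed the expression filter on them alone.

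Markers of tissues next to the lung moved with single libraries. The counts that follow stand against 3.81% of all genes higher and 4.72% lower at the unadjusted threshold. Heart muscle genes had a median log2 difference of 2.19 with 0 of 9 past the unadjusted threshold. Their sum was 287.6 CPM in hypoplastic 1 and 142.9 CPM in hypoplastic 2, against 25.3 to 38.8 CPM in the other exposed lungs and 27.8 to 53.9 CPM in the controls. Without those 2 libraries the median of the heart muscle list was -1.07, and Myh6, a heart myosin, went from 3.63 to -1.53. Among 7 genes of oesophagus, trachea and cartilage 1 was higher (Col2a1, the main cartilage collagen, 0.84, and 0.47 without control 2). They summed to 1268 CPM in hypoplastic 1, where Col11a1, a cartilage collagen, and Krt14, a basal keratin, were also highest, against 521 to 683 CPM in the other exposed lungs and 240 to 624 CPM in the controls. Red cell genes had a median of -0.53 with 1 of 8 lower (Alas2, the first enzyme of haem synthesis), and control 2 held their highest sum. Without it the median of the red cell list was 0.05, of the opposite sign, and Alas2 went from -0.79 to -0.41. Of 5 tested mesothelial genes Upk1b was lower without overlap (-1.31, SE 0.41), against 2.24% of all genes. In that list 2 differences were positive, among them Msln (0.65, SE 0.42), and 3 negative. The median of the mesothelium list was 0.16 for the untreated and -0.50 for the treated lungs, side by side. In skeletal muscle 1 of 5 genes (Acta1, 0.41, SE 0.17), and in the liver list its single tested gene, Fgg (2.05, SE 0.88), were higher. Fgg was at 27.5 CPM in hypoplastic 2 against 2.76 to 4.18 CPM in the other exposed lungs, and its difference was 0.93 without that library. None of 4 thymus and none of 8 MHC class II genes passed. The part of such tissue in the results above was not tested.

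**Figure D4:**
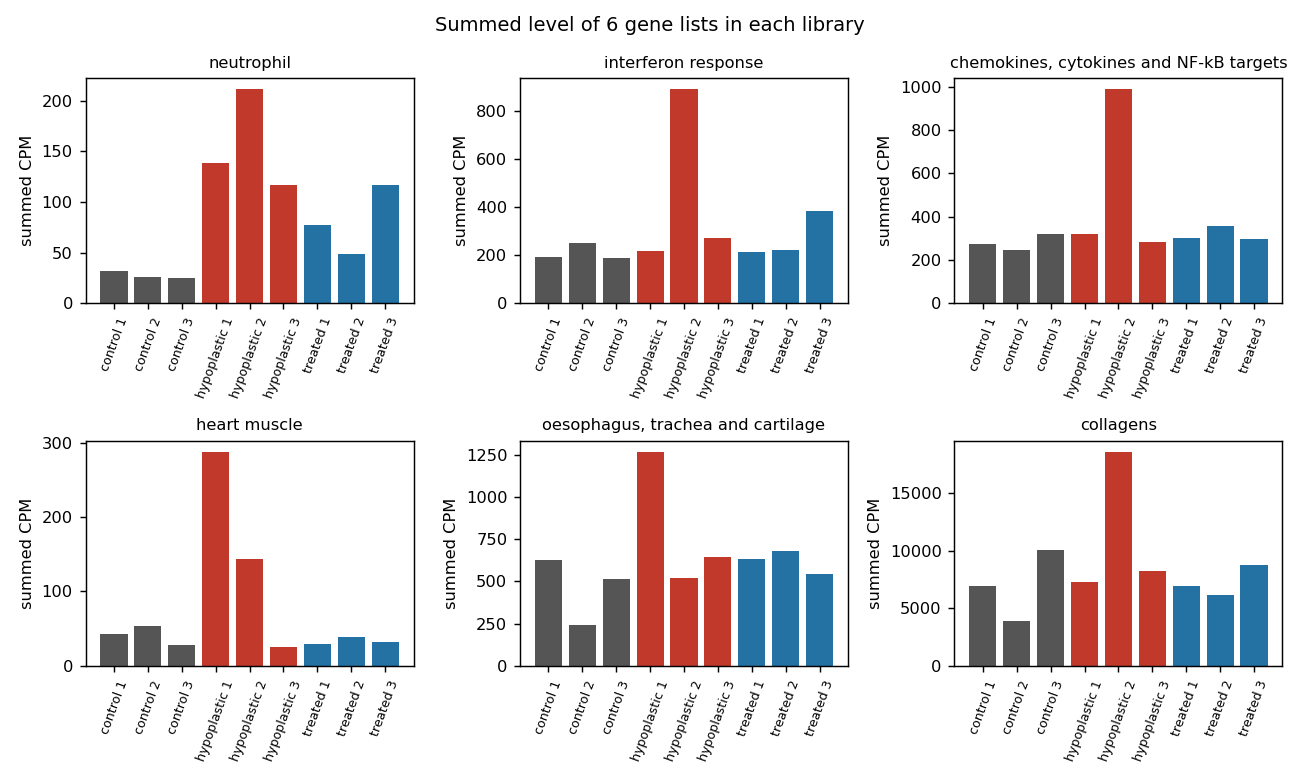
Summed level in CPM of 6 gene lists in each library. The neutrophil sum was higher in every exposed lung than in every control. Interferon and chemokine sums stood out in hypoplastic 2 and the cartilage sum in hypoplastic 1. The heart sum stood out in hypoplastic 1 and, less far, in hypoplastic 2.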

How the data were processed

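Total RNA of 9 frozen fetal lungs was depleted of ribosomal RNA (Ribo-Zero Plus) and sequenced, and all extractions fell on 1 day, per the labels' protocols. The authors deposited 1 table of estimated counts of 17465 genes, not normalized between libraries. The submitters' processing notes name the build rn7 and DESeq2 without a role. No source used here names the aligner, the counter or the annotation. Of the nonzero values 19.5% were whole. How the fractions arose, and so how reads of near-identical genes were split, is not known. Strand use in counting is not given either.

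The planned tests assumed counts, so the estimated counts were rounded. The test was edgeR 4.0.16 (quasi-likelihood, legacy=FALSE, TMM, filterByExpr with the 3 groups; R 4.3.3) with 1 exposure term and 7 residual degrees of freedom. The filter kept 12966 genes and set aside 4499. Genes near 0 in the controls, among them Mpo, Il6, Krt14, Oas2 and Prg2, could not have passed it on the controls alone. For such genes the filter favours those higher in the exposed lungs. Benjamini-Hochberg adjustment ran over all genes tested and the threshold was 0.05. Standard errors are the absolute log2 difference over the square root of F. The common biological coefficient of variation was 0.266. Within groups, chi-square per degree of freedom was at least 132.1, above counting error, so no library was taken as a repeat. Rows of ribosomal and 7SL RNA, of which there were 6, held 14.07% to 19.93% of counts. The scripts were tested on simulated data.

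Named genes were, in each direction, called genes and then those of smallest p, up to 12, with a symbol, a mean of at least 1 CPM in the higher group and no overlap, along with 16 fixed genes and up to 4 members of smallest p per list. Other genes named were chosen for their role or after their values were seen. The 36 lists hold 459 entries, 395 of them tested, 40 set aside by the filter and 24 not analysed here. Some items are not reported here. The exposed and control libraries, and the lists, were chosen with earlier results of these data known. Symbols came from RefSeq (GRCr8), which matched 17314 IDs (99.1%). Alternatives were RLE scaling, other filters, DESeq2 1.42.0, limma voom 3.58.1, a term per group, the replicate number as a block, sex, removal of ribosomal rows and leaving out libraries.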

Additional observations from a re-analysis of the deposited data

Results flagged for a closer look

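In the 6 exposed lungs, 18 of 87 genes examined had a highest or lowest library set apart from the others beyond Dixon's 95% limit. Chance passes that limit in about 1 in 20 groups of normally distributed values. That rate cannot be set against the 18 genes. The CPM values were not logged, the genes share libraries, and some were chosen after their values were seen. Hypoplastic 2 held the isolated highest value in 12 of the 18. For immune genes these were Il1rl1 (15.1 CPM), Mcemp1 (5.36 CPM), Ifit3 (85.5 CPM), Isg15 (19.6 CPM), Oasl (49.6 CPM), Oas1a (12.8 CPM), Il6 (7.05 CPM), Cxcl2 (14.6 CPM) and Cxcl10 (98.9 CPM). For stromal genes they were Dkk2 (12.2 CPM), Fabp4 (10.2 CPM) and Col1a1 (5816 CPM). Hypoplastic 1 held it for Col2a1 (894 CPM), Col11a1 (89.1 CPM) and Krt14 (14.9 CPM).

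The other 3 were in treated lungs. Slc22a5 was highest in treated 1 (24.3 CPM), yet below every control. Ccn1 (199 CPM) and Stra6 (1.57 CPM) were lowest in treated 3, inside the control range for Ccn1 and below it for Stra6.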

How the results depend on the processing

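The count of called genes was 0 and moved to 79 (66 without overlap) with DESeq2, to 2 (Lepr and Spp1) with a term per group, to 1 (Ifit1) without control 2 and hypoplastic 2 together, and to 1 (Lepr) at an adjusted p under 0.1. Leaving out 1 library gave 0 to 4 calls, all without overlap: Ifit1 without control 2, and Olfm4, S100a8, S100a9 and Tf without treated 2. The 1106 genes at an unadjusted p under 0.05 became 719 with sex as a covariate and 493 without control 2 and hypoplastic 2. Leaving out 1 library gave 453 (without control 2) to 1336 (without treated 1). Without hypoplastic 1 and hypoplastic 2, a choice made after seeing the data, it was 829, with 0 calls.

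Libraries of the same number correlated from -0.368 to 0.312 in their deviations, over 0.1 in 3 of 9 pairs. No pairing by number was seen, as 0 libraries correlated best with their own number in both other groups. With so few libraries per group these values cannot settle whether lungs of the same number shared a litter, which the labels do not state. With the replicate number as a block 0 genes were called and 925 had an unadjusted p under 0.05.

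Of the log2 differences, 11 values changed sign. Sftpa1 was 0.081 without control 2 and 0.20 without control 2 and hypoplastic 2, and ran from -0.55 to 0.081 when 1 library was left out. In the same way Sox9 ran from -0.27 to 0.12, Fgf10 from -0.041 to 0.084, and Smad3 from -0.11 to 0.18. Smad3 was -0.14 and Col1a1 -0.18 without control 2 and hypoplastic 2, and Myh6 -1.53 without hypoplastic 1 and hypoplastic 2. The cause was not tested. Medians of 21 of 36 lists changed sign in some setting, among them elastic fibre, collagens and heart muscle but not neutrophil, interferon or alveolar lists. With 3 controls, control 2 alone set the size of many differences, and genes of few counts were tested with little precision.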

Other observations

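In all, 69 genes without overlap had at least a 2-fold difference and a mean of at least 1 CPM in the higher group, 54 higher and 15 lower in the exposed lungs. Those named here were singled out after their values were seen. Several of the higher ones encode granule proteins: the defensins Np4 (log2 difference 3.02, SE 0.68), Defa5 (3.07, SE 0.80) and RatNP-3b (3.03, SE 0.70), and Prg2, the major basic protein of eosinophils (2.93, SE 0.66). Such defensin genes are near copies of each other, so their single values are uncertain. Prg2 was at 0.138, 0.214 and 0.108 CPM in the controls and 0.529, 0.967 and 2.62 CPM (lowest, median and highest) in the exposed lungs. Others were Bdkrb2, a bradykinin receptor (1.34, SE 0.41), Adamts4, a protease of matrix proteoglycans (2.38, SE 0.88), and Chi3l1, a chitinase-like protein (1.41, SE 0.47). The lower ones included Esr2, an oestrogen receptor (-1.07, SE 0.32), Cyp3a9, a drug-metabolising enzyme (-1.10, SE 0.29), and Angptl8, a regulator of lipoprotein lipase (-1.15, SE 0.27). None of these was called by edgeR in the pooled comparison, whose adjusted p was at least 0.094 for every gene.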
